A study of Mus musculus with 6 samples.

Results

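Metallothioneins and zinc transport were examined through 7 genes chosen by name: the metallothioneins *Mt1* and *Mt2*, their transcription factor *Mtf1*, the zinc exporters *Slc30a1* and *Slc30a4*, and the zinc importers *Slc39a1* and *Slc39a14*. All 7 were found by symbol among the 55335 genes of the table, and all 7 were among the 13367 genes tested. The libraries came from mouse bone marrow-derived macrophages (BMDMs), grown from bone marrow cells with 25 ng/ml of macrophage colony-stimulating factor for 7 days. BMDMs of WT genotype were cultured for 24 h with neutrophils isolated from spinal cord lesions at 3 days post-injury (dpi), and were then separated from them by cell sorting before RNA extraction. In 3 libraries the neutrophils came from *Cd177* WT mice and in 3 from *Cd177* KO mice, which lack the neutrophil surface protein CD177. By design, the groups differed in the neutrophil partner. BMDMs cultured without neutrophils were not analysed here, and the number of cultures or animals behind each library is not given in the sources used here. Per the study's methods all mice were male, and the purchased C57BL/6 mice were 8 weeks old, with no age stated for the *Cd177* KO mice that gave neutrophils here. The p-values therefore measure the spread between these libraries, which may be technical.

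Metallothioneins are small, cysteine-rich proteins that bind zinc and copper, and their genes are induced by zinc, by glucocorticoids and in inflammation. MTF-1, the product of *Mtf1*, senses free zinc through its zinc fingers and binds metal response elements in the promoters of *Mt1*, *Mt2* and *Slc30a1*. Proteins of the SLC30 (ZnT) family carry zinc out of the cytosol, to the outside or into vesicles, and proteins of the SLC39 (ZIP) family carry it in. Activated macrophages shift zinc between these stores, withholding it from microbes or loading it into the phagosome.

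Promoter windows of *Mt1*, *Mt2* and *Slc30a1* are shown because the metal response element is the sequence the 3 genes are known to share. Each run is the 250 bases upstream of the RefSeq start (GRCm38.p6, plus strand, 5′ to 3′), at chr8:94178839-94179088 for *Mt1*, chr8:94172368-94172617 for *Mt2* and chr1:191906531-191906780 for *Slc30a1*. Capitals mark matches to the element's core, TGCACNC or TGCGCNC, on either strand.
Mt1: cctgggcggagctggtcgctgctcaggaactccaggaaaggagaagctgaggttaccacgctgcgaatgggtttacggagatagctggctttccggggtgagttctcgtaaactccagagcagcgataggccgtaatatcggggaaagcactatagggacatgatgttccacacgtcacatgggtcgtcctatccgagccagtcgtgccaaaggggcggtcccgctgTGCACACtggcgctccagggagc
Mt2: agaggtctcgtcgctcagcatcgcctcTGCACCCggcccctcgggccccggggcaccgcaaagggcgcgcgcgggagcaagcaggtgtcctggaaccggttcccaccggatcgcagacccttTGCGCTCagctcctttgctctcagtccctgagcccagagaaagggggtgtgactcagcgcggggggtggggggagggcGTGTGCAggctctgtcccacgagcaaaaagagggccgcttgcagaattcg
Slc30a1: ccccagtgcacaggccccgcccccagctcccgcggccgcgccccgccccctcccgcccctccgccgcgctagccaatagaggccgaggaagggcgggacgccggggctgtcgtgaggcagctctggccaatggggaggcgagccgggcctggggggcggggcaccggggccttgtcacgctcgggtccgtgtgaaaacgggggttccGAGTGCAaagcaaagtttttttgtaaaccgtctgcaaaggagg
With the 50 bases after the start included, the 300-base window held 4 matches in *Mt2*, 3 in *Mt1*, 3 in *Slc30a4* and 2 in *Slc30a1*, with overlapping matches counted, and none in *Mtf1* or *Slc39a1*. *Slc39a14* was not in the promoter table. Of 32851 RefSeq windows of the same length, 25.7% held at least 1 match, 7.11% at least 2, 1.97% at least 3 and 0.517% at least 4. In *Mt1* only 1 of the 3 matches lay upstream of the start, and the others lay at bases 3 to 9 and 21 to 27 after it. Windows follow the RefSeq start alone. Elements further downstream were not counted, and a printed run need not be the core promoter. A match is a description of letters and was not tested as a binding site.

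Values were FPKM (fragments per kilobase of transcript, relative to the library's total), a scale per length. Levels of different genes can be set side by side on it only roughly, since the annotation behind the lengths is not given. If the smallest common step of a library is 1 fragment, depth lay between 17600000 and 20300000 fragments, and the columns summed to between 302532 and 340717 FPKM. WT replicate 3 stood apart: its 1977 tested transcripts with a mean length under 800 bases had a median of 0.30 (log2) above the mean of WT replicates 1 and 2, against -0.06 for the 11384 longer ones, while the same medians in KO replicate 3 were 0.03 and -0.01. *Cd177* itself, read in the macrophage libraries, averaged 0.458 ± 0.130 FPKM under the WT label and 1.97 ± 0.272 FPKM under the KO label (SD, n = 3). This is the opposite order to the neutrophil genotypes, so every direction here is between libraries as labelled. Most neutrophil markers moved the same way: 13 of 15 tested were higher in KO-labelled libraries and 1 lower. The lower one was *Mmp8* (21.9 to 9.80 FPKM on average, log2 fold change -1.12). Over all tested genes, 27.1% were called higher and 10.5% lower, the reference for the macrophage and spinal cord markers below too. Of the 13, 4 had WT means under the filter of 0.5 FPKM and were tested only through their KO level. The summed level of the neutrophil markers was 204 to 263 FPKM in WT and 566 to 580 FPKM in KO. The defining marker *Ly6g* was listed at 0 in all WT-labelled libraries and at 0.660, 0.547 and 0.403 FPKM in the KO-labelled ones. It was under the filter and not tested. Of the other untested markers, *Mpo* (mean 0.174 FPKM in WT and 0.410 in KO) and *Prtn3* (0.0425 and 0.427) were higher in KO. *Elane* (0.317 and 0.138) and *Ctsg* (0.282 and 0.134) had lower means in KO, with overlapping groups. The highest rises of the list were in the granule genes *Ltf* (3.92 to 37.0 FPKM on average, log2 fold change 3.09), *Ngp* (12.9 to 107 FPKM, 3.02) and *Lcn2* (2.95 to 16.7 FPKM, 2.31). The 10 macrophage markers summed to 6825 to 8181 FPKM in WT and 7415 to 8119 FPKM in KO. Most of each sum was *Lyz2*, with means of 4922 FPKM in WT and 6144 FPKM in KO, so the sums say little of the other markers. Of the 10, *Adgre1* and *Mertk* were higher in KO and *Fcgr1* and *Cd14* lower, the last from a mean of 1010 ± 150.1 to 99.4 ± 8.39 FPKM. Of 12 spinal cord markers 4 were tested and 1, *Tubb3*, was higher in KO (log2 fold change 0.36), with a summed level of 28.1 to 29.6 FPKM in WT and 33.0 to 34.9 FPKM in KO. *Aqp4*, *Mog*, *Mobp* and *Snap25* were at 0 in all 6 libraries. The part of neutrophil RNA in the results below was not tested, and in bulk libraries fewer cells of a type and less RNA per cell cannot be told apart.

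Across the 7 genes, *Slc30a4* rose in the KO-labelled libraries, *Mt2*, *Slc30a1* and *Slc39a14* fell, and *Mt1*, *Mtf1* and *Slc39a1* did not pass the test. Each of the 4 called changes was about 1.5-fold between group means. The metallothioneins took opposite signs, and so did the exporters. Of all genes tested with limma on log2(FPKM + 0.5) with Benjamini-Hochberg adjustment (threshold 0.05), 37.6% were called, 27.1% higher and 10.5% lower in KO, so 1 of 7 higher and 3 of 7 lower is read against those shares. WT and KO libraries were fully apart for 5 of these 7 genes, against 51.9% of all tested genes. The median log2 fold change of the 7 was -0.01, beside 0.19 over all tested genes.

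**Figure D1:**
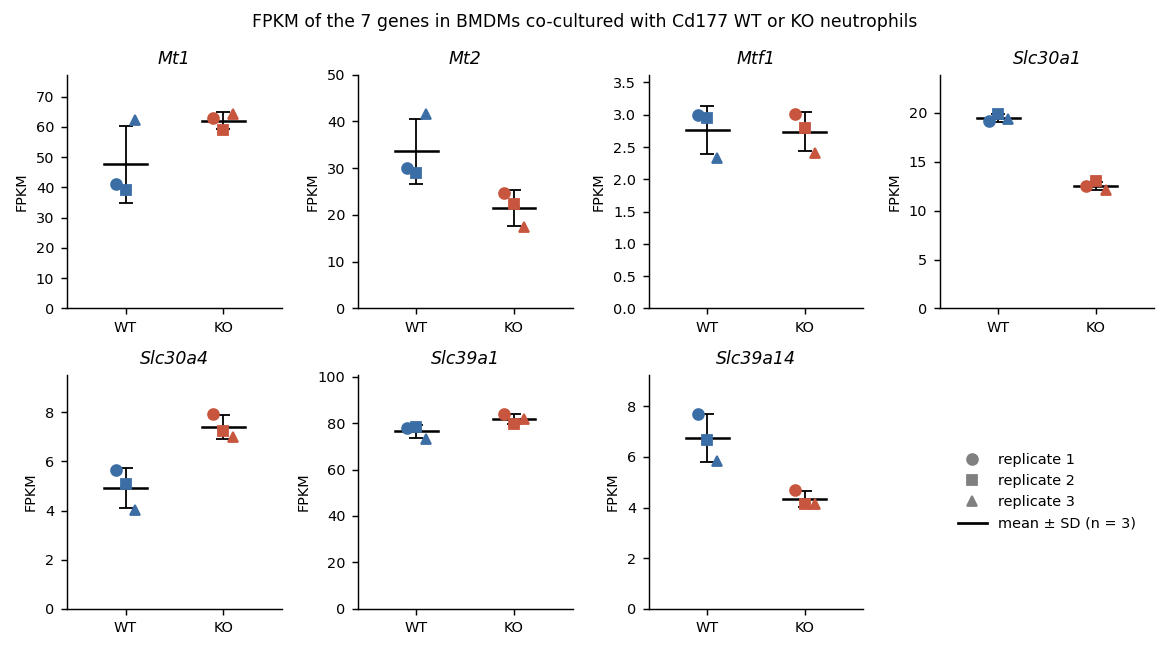
FPKM (y axis, linear from 0) of each of the 7 genes in the 3 libraries labelled WT (blue) and the 3 labelled KO (red), with marker shapes for replicates 1 to 3 and black bars for the group mean ± SD. The groups are apart for *Mt2*, *Slc30a1*, *Slc30a4*, *Slc39a14* and narrowly *Slc39a1*, and WT replicate 3 lies with the KO-labelled libraries for *Mt1*.

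*Mt1* (chromosome 8, 94179082 to 94180327, plus strand, GRCm38 with GENCODE M21) was among the abundant transcripts of these macrophages, with a mean above that of 94.0% of tested genes. Its level was 41.1, 39.2 and 62.4 FPKM in WT replicates 1 to 3, and 62.9, 58.9 and 64.4 FPKM in KO replicates 1 to 3. WT replicate 3 stood with the KO-labelled libraries, the other WT libraries stood well below them, and the groups overlapped. The means were 47.6 ± 12.9 FPKM in WT and 62.1 ± 2.84 FPKM in KO (SD, n = 3), a log2 fold change of 0.41 (SE 0.18, 95% interval -0.01 to 0.83) with a limma adjusted p of 0.113. The size depended on processing: without WT replicate 3 the log2 fold change was 0.62 (limma adjusted p 0.00120), with median-of-ratios scaling 0.18 (0.515), and with the trend with transcript length removed 0.22 (0.176). WT replicate 3 exceeded the mean of the other WT libraries by 0.63 (log2) for *Mt1*, and the part of its excess of short transcripts in this was not tested further.

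*Mt2* lies 5513 bases upstream of *Mt1* on the same strand (chromosome 8, 94172664 to 94173568) and encodes the other widely expressed metallothionein. In WT replicates 1 to 3 it was at 30.0, 29.0 and 41.7 FPKM, and in KO replicates 1 to 3 at 24.8, 22.4 and 17.3 FPKM. Every KO-labelled library was below every WT-labelled one, with the widest spread again from the replicates numbered 3. The mean fell from 33.6 ± 7.05 to 21.5 ± 3.81 FPKM (SD, n = 3), 1.56-fold, with a log2 fold change of -0.63 (SE 0.18, 95% interval -1.07 to -0.19) and a limma adjusted p of 0.0357. This call was not firm. It was lost without WT replicate 1 (limma adjusted p 0.0605), WT replicate 3 (0.0524, log2 fold change -0.46), KO replicate 2 (0.0794) or KO replicate 3 (0.0926, -0.48). With no filter on low values (0.0837) or a replicate block (0.0632) it was lost too. The fall was larger with the length trend removed (-0.90, limma adjusted p 0.00156), median-of-ratios scaling (-0.85, 0.0152) or upper-quartile scaling (-0.71, 0.0250). The sign was negative in all 17 alternatives, most of which could not turn it. The opposite-strand gene *Gm45774* overlaps an exon of *Mt2* but reached at most 0.161 FPKM.

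The ratio of the 2 metallothioneins shifted further between the groups than the level of either, as must follow from their opposite signs. It adds no separate support, and *Mt1* itself was not called. Within a library, where scaling cancels, *Mt1* was 1.37, 1.35 and 1.50 times *Mt2* in WT replicates 1 to 3, and 2.54, 2.63 and 3.71 times in KO replicates 1 to 3. All KO-labelled ratios were above all WT-labelled ones, including WT replicate 3, where both genes were high. The mean ratio was 1.41 ± 0.0786 in WT and 2.96 ± 0.656 in KO (SD, n = 3), a difference of 1.05 in mean log2 ratio with an exact two-sided permutation p of 0.1, the smallest that 3 against 3 libraries can give. The longest stretch that their annotated transcripts share is 20 bases, and no 50-base stretch of either occurs in another annotated transcript. Their summed level did not separate the groups: it was 71.2, 68.2 and 104 FPKM in WT and 87.7, 81.3 and 81.7 FPKM in KO. The group means of the sum were 81.1 ± 19.9 and 83.6 ± 3.56 FPKM (SD, n = 3; exact permutation p = 1), and the sign of their difference changed with scaling between libraries.

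**Figure D2:**
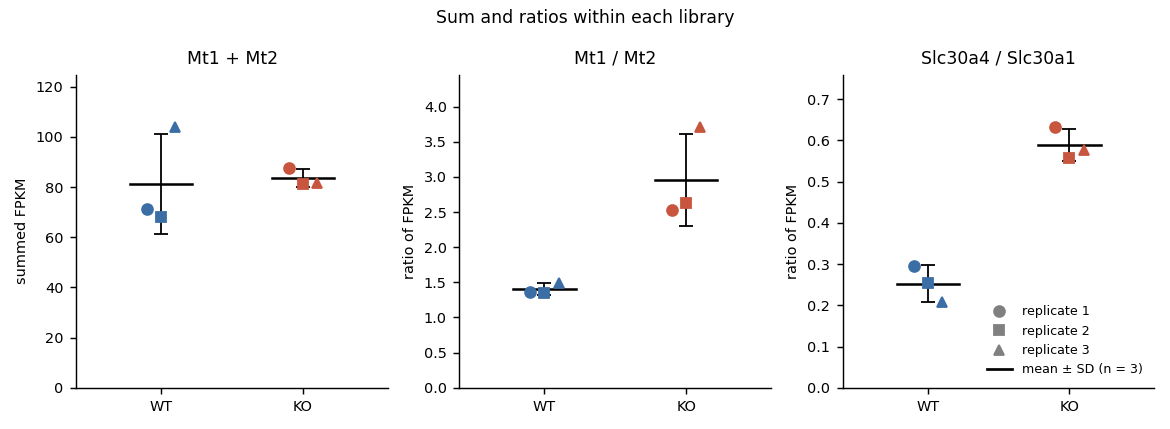
Summed *Mt1* and *Mt2* FPKM (left), ratio of *Mt1* to *Mt2* (middle) and ratio of *Slc30a4* to *Slc30a1* (right) in each library, by labelled group, with mean ± SD as black bars and y axes from 0. The sums overlap, whereas the ratios lie at 1.35 to 1.50 in WT and 2.54 to 3.71 in KO for the metallothioneins, and at 0.207 to 0.296 in WT and 0.558 to 0.633 in KO for the exporters.

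The other metallothioneins were near or at the floor. *Mt3*, the form best known from neurons, was at 0.197, 0.157 and 0.675 FPKM in WT and 0.0532, 0.0462 and 0 FPKM in KO and was not tested. *Mt4*, known from squamous epithelium, was listed at 0 in every library.

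*Mtf1* (chromosome 4, 124802104 to 124849800, plus strand) was the lowest of the 7 genes and did not pass the test. It was at 3.00, 2.95 and 2.33 FPKM in WT replicates 1 to 3 and at 3.02, 2.80 and 2.41 FPKM in KO replicates 1 to 3. The replicates numbered 3 were lowest in both groups, and the ranges overlapped almost entirely. The log2 fold change was -0.01 (SE 0.13, 95% interval -0.32 to 0.31; limma adjusted p 0.976). It was -0.24 with quantile normalization (limma adjusted p 0.147) and -0.24 with the length trend removed (0.0773), again not called. An exon of *Mtf1* overlaps *1110065P20Rik* on the opposite strand, which was at 3.69 to 6.46 FPKM, and the sources do not say whether counting used strand, so reads in the overlap may be shared. mRNA level says nothing of how much MTF-1 was bound to zinc or in the nucleus.

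*Slc30a1* encodes ZnT1, the exporter of the plasma membrane and a classical MTF-1 target (chromosome 1, 191906767 to 191913247, plus strand). Its values were tight: 19.1, 19.9 and 19.4 FPKM in WT replicates 1 to 3, against 12.5, 13.0 and 12.1 FPKM in KO replicates 1 to 3. The gap between the groups was many times the spread within either. The mean fell from 19.5 ± 0.415 to 12.6 ± 0.415 FPKM (SD, n = 3), 1.55-fold, with a log2 fold change of -0.61 (SE 0.08, 95% interval -0.79 to -0.43) and a limma adjusted p of 0.00108. It was called lower in all 17 alternatives, with log2 fold changes from -0.85 to -0.59. Of all tested genes, 8.26% had a log2 fold change as low or lower.

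*Slc30a4* encodes ZnT4, an exporter of endosomal, lysosomal and secretory vesicles (chromosome 2, 122681233 to 122702663, minus strand). It was at 5.65, 5.08 and 4.02 FPKM in WT and at 7.94, 7.24 and 7.02 FPKM in KO replicates 1 to 3. All KO-labelled libraries exceeded all WT-labelled ones. The mean rose from 4.92 ± 0.828 to 7.40 ± 0.483 FPKM (SD, n = 3), 1.50-fold, with a log2 fold change of 0.55 (SE 0.13, 95% interval 0.24 to 0.87) and a limma adjusted p of 0.0174. The rise has to be seen beside the general upward shift, since 21.5% of tested genes had a log2 fold change as high or higher. With median-of-ratios scaling, which takes the median of all genes from 0.19 to -0.01 and the calls from 3619 higher and 1408 lower to 2058 higher and 2259 lower, the log2 fold change was 0.34 with a limma adjusted p of 0.0740. It also missed the threshold without KO replicate 1 (limma adjusted p 0.0698) or KO replicate 2 (0.0548).

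Set against each other within a library, the exporters moved apart, which restates their opposite changes above and adds no separate support. *Slc30a4* was 0.296, 0.255 and 0.207 of *Slc30a1* in WT replicates 1 to 3, and 0.633, 0.558 and 0.578 of it in KO replicates 1 to 3, with no overlap (exact permutation p = 0.1, the smallest possible). *Slc30a1* supplied 39.8 ± 0.749% of the summed SLC30 FPKM in WT and 29.2 ± 0.660% in KO (SD, n = 3). The sum itself was 48.9 ± 0.980 FPKM in WT and 43.0 ± 0.682 FPKM in KO (exact permutation p = 0.1).

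*Slc39a1* encodes ZIP1, a widely expressed plasma membrane importer (chromosome 3, 90248172 to 90253612, plus strand), and was the most abundant of the 7 genes in both groups, above 96.0% of tested genes. It was at 77.9, 78.2 and 73.2 FPKM in WT and at 84.0, 79.5 and 81.6 FPKM in KO replicates 1 to 3. The groups did not overlap, but the highest WT value (78.2) and the lowest KO value (79.5) were close. The means were 76.4 ± 2.78 and 81.7 ± 2.24 FPKM (SD, n = 3), with a log2 fold change of 0.10 (SE 0.07, 95% interval -0.08 to 0.27; limma adjusted p 0.346), and the sign turned under median-of-ratios scaling (-0.13). Of its 50-base stretches 21.8% also occur in the pseudogene *Slc39a1-ps*, listed at 1.96 to 5.30 FPKM, so a small part of its reads may be placed there or the reverse.

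*Slc39a14* encodes ZIP14, an importer of zinc, manganese and non-transferrin-bound iron that is known to be induced by interleukin-6 in liver (chromosome 14, 70303469 to 70351425, minus strand). It was at 7.70, 6.69 and 5.84 FPKM in WT replicates 1 to 3 and at 4.69, 4.13 and 4.16 FPKM in KO replicates 1 to 3. Every KO-labelled library lay below every WT-labelled one, and the WT-labelled libraries were the more variable. The mean fell from 6.74 ± 0.935 to 4.33 ± 0.312 FPKM (SD, n = 3), 1.56-fold, with a log2 fold change of -0.58 (SE 0.12, 95% interval -0.87 to -0.29) and a limma adjusted p of 0.0102. Like *Slc30a1*, it was called lower in all 17 alternatives (log2 fold changes from -0.79 to -0.49).

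In order of level, the WT-labelled libraries had *Slc39a1* first, then *Mt1*, *Mt2*, *Slc30a1*, *Slc39a14*, *Slc30a4* and *Mtf1*, and only the neighbours *Mt1* and *Mt2* had overlapping ranges. In the KO-labelled libraries *Slc30a4* (7.40 FPKM) passed *Slc39a14* (4.33 FPKM), the other places were the same, and no neighbours overlapped.

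Beyond these 7 genes, larger changes were found among the importers, and the 4 other tested exporters were not called. Of the 24 genes of both families 18 were tested, of which 6 were called higher in KO, 4 lower and 8 neither and 12 had groups that were fully apart, beside 27.1%, 10.5% and 51.9% of all tested genes called higher, called lower and fully apart. Both directions were thus represented, and nothing particular to the families is read from these counts. Their median log2 fold change was 0.03, beside 0.19 over all tested genes. *Slc30a2*, *Slc30a3*, *Slc30a8* and *Slc30a10* were listed at 0 in all 6 libraries, and *Slc39a2* and *Slc39a5* lay under the filter. The 8 uncalled genes, *Slc39a1* included, had log2 fold changes from -0.25 to 0.10 (limma adjusted p from 0.233 to 0.952).

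**Figure D3:**
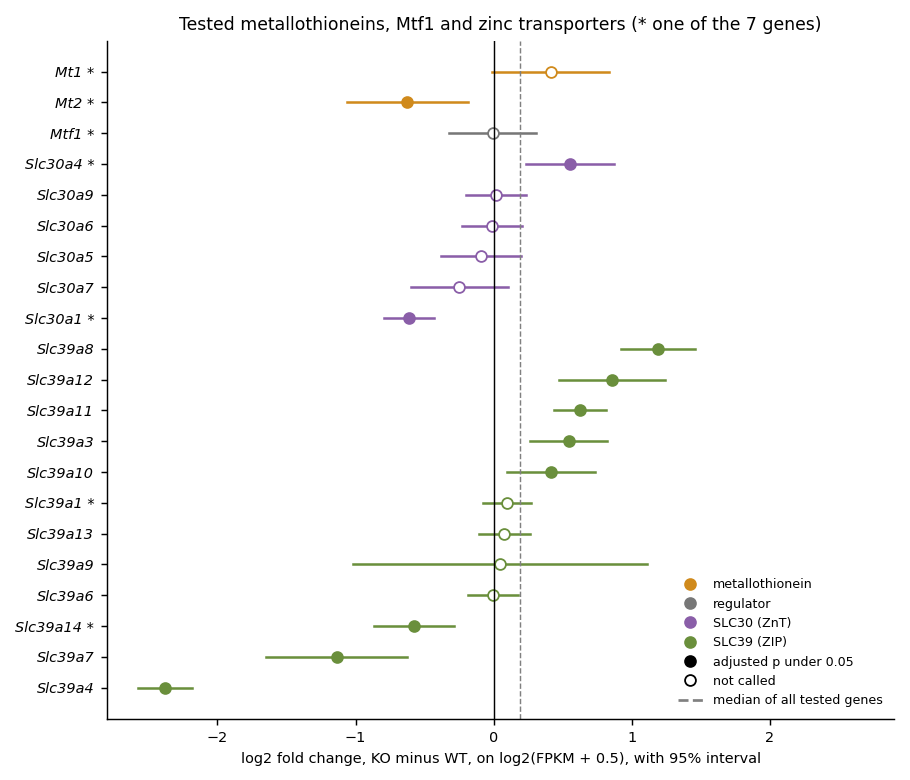
Log2 fold change between KO-labelled and WT-labelled libraries on log2(FPKM + 0.5) (x axis) for the tested metallothioneins, *Mtf1* and the SLC30 and SLC39 genes, with 95% intervals as bars, coloured by family. Filled points had a limma adjusted p under 0.05, asterisks mark the 7 genes and the dashed line is the median of all tested genes (0.19), and *Slc39a4* lies lowest at -2.38 and *Slc39a8* highest at 1.19.

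The largest fall was in *Slc39a4*, which encodes ZIP4, the importer known for zinc uptake in the intestine. It was at 11.9, 11.6 and 11.5 FPKM in WT replicates 1 to 3 and at 1.81, 1.84 and 1.85 FPKM in KO replicates 1 to 3, so each group spanned well under 1 FPKM. The mean of 11.6 ± 0.214 FPKM in WT was 6.36 times the 1.83 ± 0.0212 FPKM in KO (SD, n = 3), with a log2 fold change of -2.38 (SE 0.08) and a limma adjusted p of 4.44e-06. *Slc39a7* encodes ZIP7, which releases zinc from the endoplasmic reticulum. It was at 57.3, 51.0 and 75.7 FPKM in WT and at 21.5, 26.6 and 35.3 FPKM in KO, with the replicates numbered 3 highest in both groups. Its mean fell 2.21-fold, from 61.4 ± 12.8 to 27.8 ± 6.98 FPKM (SD, n = 3; log2 fold change -1.14, limma adjusted p 0.00645).

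The rises were in *Slc39a8*, *Slc39a12*, *Slc39a11*, *Slc39a3* and *Slc39a10*. *Slc39a8* encodes ZIP8, known from activated immune cells for moving zinc into the cytosol. It went from 0.532, 0.553 and 0.547 FPKM in WT to 1.96, 1.77 and 1.92 FPKM in KO (log2 fold change 1.19, limma adjusted p 0.000367), a 3.46-fold rise of the means from a low level. *Slc39a11*, which encodes ZIP11, was at 9.60, 9.48 and 9.05 FPKM in WT and at 15.2, 14.9 and 14.1 FPKM in KO (log2 fold change 0.62, limma adjusted p 0.00121). *Slc39a3* rose from 5.11 ± 0.666 to 7.65 ± 0.528 FPKM (SD, n = 3; log2 fold change 0.54, limma adjusted p 0.0112), and *Slc39a12* from 0.279 ± 0.0839 to 0.910 ± 0.155 FPKM (0.86, limma adjusted p 0.00635). The WT mean of *Slc39a12* was under the filter, so it was tested only through its KO level, and it was not tested at a mean of at least 1 FPKM. The call of *Slc39a10* was marginal (log2 fold change 0.41, limma adjusted p 0.0497) and held in 4 of 17 alternatives, and that of *Slc39a3* was lost with median-of-ratios scaling (limma adjusted p 0.0629).

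Taken as a family, SLC39 transcripts summed to 204, 197 and 214 FPKM in WT and to 172, 173 and 185 FPKM in KO (means 205 ± 8.50 and 177 ± 7.34 FPKM; exact permutation p = 0.1). The make-up of the sum differed between the groups. *Slc39a1* supplied 37.4 ± 2.81% of it in WT and 46.2 ± 2.38% in KO, *Slc39a7* supplied 29.8 ± 4.97% and 15.6 ± 3.29%, and *Slc39a4* supplied 5.69 ± 0.286% and 1.04 ± 0.0354% (SD, n = 3).

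**Figure D4:**
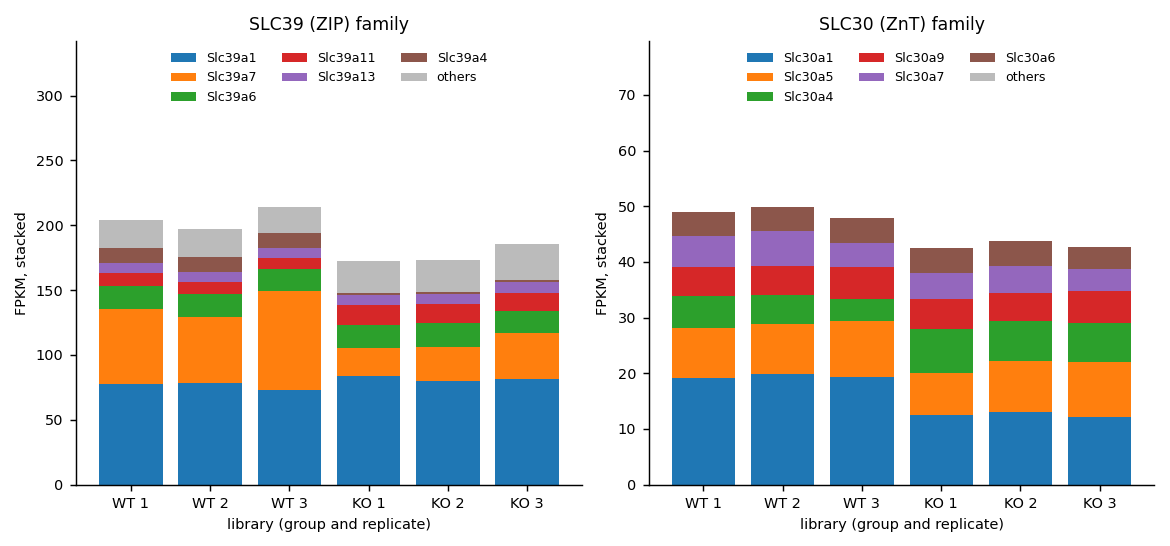
Stacked FPKM of the SLC39 family (left) and the SLC30 family (right) in each library (x axis, group as labelled and replicate), with the 6 most abundant genes in colour and the others in grey. The SLC39 sums lie at 197 to 214 in WT and 172 to 185 in KO, where the *Slc39a7* and *Slc39a4* segments are shorter, and the SLC30 sums lie at 47.9 to 49.8 in WT and 42.5 to 43.8 in KO.

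Genes reported elsewhere to respond to MTF-1 included both rises and falls. The list does not separate genes that MTF-1 raises from genes that it lowers. Its counts and median therefore say nothing of MTF-1 activity. Of a list of 9, all tested, 4 were higher in KO and 3 lower, where 27.1% and 10.5% of all tested genes were, with a median log2 fold change of 0.41, beside 0.19 over all tested genes. The lower ones were *Mt2*, *Slc30a1* and *Gclc*, and the higher ones *Slc39a10*, *Selenoh*, *Ndrg1* and *Csrp1*. *Gclc* encodes the catalytic subunit of the enzyme that limits glutathione synthesis. It was at 43.1, 46.9 and 37.4 FPKM in WT replicates 1 to 3 and at 18.1, 18.1 and 16.5 FPKM in KO replicates 1 to 3, with a log2 fold change of -1.24 (limma adjusted p 0.000219). *Selenoh*, a nuclear selenoprotein, was at 5.97 ± 1.85 and 10.0 ± 1.89 FPKM with overlapping groups (log2 fold change 0.72, limma adjusted p 0.0471), and *Ndrg1*, a hypoxia-responsive gene, was at 2.36 ± 0.145 and 4.16 ± 0.149 FPKM (0.70, limma adjusted p 0.00162).

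Metallothioneins also bind copper and answer to glucocorticoids, so both gene groups were counted, again beside 27.1% higher and 10.5% lower over all tested genes. Of 11 copper-handling genes 10 were tested, with 1 higher in KO (*Ccs*), 2 lower and a median log2 fold change of -0.13. The lower ones were the copper transporters: *Slc31a2* fell from 52.2 ± 2.83 to 21.3 ± 0.493 FPKM (SD, n = 3; log2 fold change -1.27, limma adjusted p 5.20e-05) and *Slc31a1*, the high-affinity importer, from 29.3 ± 2.17 to 21.4 ± 0.494 FPKM (-0.44, limma adjusted p 0.00729). The copper exporter *Atp7a* was at 4.03 ± 1.50 and 6.01 ± 0.875 FPKM and was not called (0.58, limma adjusted p 0.137). Of 10 glucocorticoid-responsive genes 9 were tested, with 2 higher, 3 lower and a median of -0.00. Those that moved most had opposite signs: *Sgk1*, a kinase that acts on ion channels, fell from 161 ± 11.9 to 27.7 ± 1.51 FPKM (SD, n = 3; log2 fold change -2.52, limma adjusted p 4.88e-06), while *Cebpd* (1.51, limma adjusted p 0.000594) and *Tsc22d3*, which encodes the glucocorticoid-induced leucine zipper protein (1.13, limma adjusted p 0.000345), rose.

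The genes whose log2 levels ran most like *Mt1* over the 6 libraries were *C1d* (Pearson r 0.996), *Ndufb11* (0.995), *Rpl23a* (0.993), *Rnf113a2* (0.993) and *Sdc4* (0.992). In each of these 5, as in *Mt1*, WT replicate 3 stood above the other WT libraries. For *Mt2* they were *Mir6913* (0.994), *Trib3* (0.987), *Ap3s1-ps1* (0.987), *Tmem82* (0.986) and *Atxn7l2* (0.971), all of them highest in WT replicate 3 and lowest in KO replicate 3. *Mt1* and *Mt2* themselves had an r of -0.29. These correlations describe 6 libraries in 2 groups and carry no test. They were picked as the highest among the 13367 tested genes, after those with clone names or no symbol were left out.

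The signs of the 4 called genes of the 7 were the same in all alternatives, but most alternatives could not turn them. Changes of filter, variance estimate or replicate block leave the fold change as it was. Leaving out a library or changing the pseudocount cannot turn a sign where the groups do not overlap. Only the scalings, TPM and removal of the length trend could have turned these signs. The calls depended on the processing to different degrees.

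**Figure D5:**
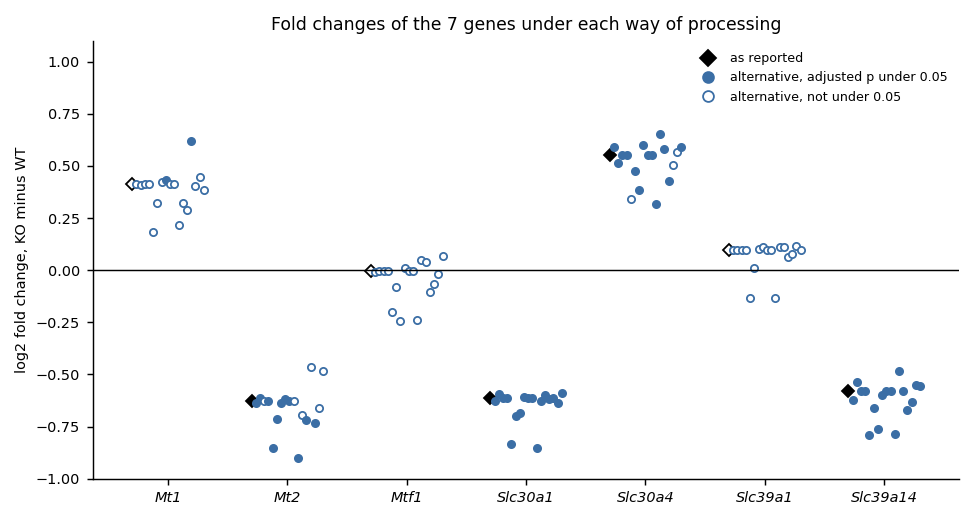
Log2 fold change between KO-labelled and WT-labelled libraries (y axis) of each of the 7 genes as reported (black diamonds) and under each of 17 alternatives in processing or choice of libraries (blue circles), filled where the limma adjusted p was under 0.05. *Slc30a1* and *Slc39a14* are filled throughout, *Slc30a4* and *Mt2* have open points on their own side of 0, and *Mt1* has 2 filled points, at 0.43 and 0.62.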

How the data were processed

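RNA-seq libraries of BMDMs co-cultured with *Cd177* WT or KO neutrophils (3 each, grouped by their labels) were compared. The authors deposited FPKM per gene; the submitters' processing notes name fastp 0.17.1, HISAT2 2.1.0, DESeq2 1.18.1 and R 3.4.3, and the build and annotation are not given in the sources used here. The labels and the paper's methods name different extraction reagents, kits and sequencers. FPKM depends on each library's total, so abundant genes that change shift all others. Identifiers were matched to GENCODE M21 (55154 of 55335, 99.7%). Only 37.3% to 40.4% of low values lay within 0.1 of whole multiples of a library's smallest step, so no count test was run.

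The 13367 genes averaging 0.5 FPKM or more were tested on log2(FPKM + 0.5), which understates changes of low genes, with limma 3.58.1 in R 4.3.3 (eBayes with trend, two-sided, Benjamini-Hochberg over all of them, threshold 0.05). The code was first run on simulated data with few changed genes, equally many up and down. That run checked the code and not the calls given here. Sums and ratios were compared by exact permutation. Promoter windows came from RefSeq, and 6 of the 7 genes matched. The rest was done in Python 3.11.15 (pandas 2.3.3; figures with matplotlib 3.10.9; numpy 2.4.6).

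The 7 genes and the lists (metallothioneins, SLC30, SLC39, MTF-1 targets, copper handling, glucocorticoid-responsive, neutrophil, spinal cord and macrophage markers), drawn up from general knowledge, were chosen with earlier results of these data known. Named genes are the 7, tested genes of the first 3 lists, up to 3 of each other list by absolute log2 fold change and, for the marker lists, by mean level, and the 5 most correlated with *Mt1* and with *Mt2*. Genes with clone names or no symbol were left out of the correlated ones. Untested genes of the first 3 lists, *Ccs*, *Csrp1*, *Adgre1*, *Cd177*, *Mmp8*, the untested neutrophil markers, the spinal cord markers at 0 and the overlapping genes fall outside this rule and were named after their values were seen. Alternatives were pseudocounts, filters, scalings, TPM, a robust variance, the replicate block, each library left out, and, added after the data were seen, removal of the trend with transcript length.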

Additional observations from a re-analysis of the deposited data

How the results depend on the processing

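*Slc30a1* and *Slc39a14* kept their direction and their call in all 17 alternatives. The difference in log2 ratio of *Mt1* to *Mt2* ran from 0.88 to 1.15 with each library left out. Its sign could not turn there, since the groups did not overlap. Over the 7 genes, 102 of 119 values kept both direction and call, 9 lost the call, 2 gained it and 6, all of uncalled genes, changed sign. For each that did, and each call lost, the cause was not tested. *Mt2* lost its call with no filter (-0.63, limma adjusted p 0.0837) and ranged from -0.73 to -0.46 with each library left out. *Slc30a4* lost it with median-of-ratios scaling (0.34) and ranged from 0.43 to 0.65. *Mt1* gained it after rescaling to TPM (0.43, limma adjusted p 0.0486), was 0.18 to 0.62 over all alternatives and ranged from 0.29 to 0.62 with a library left out. *Mtf1* changed sign with TPM (0.0089), reached -0.24 with quantile normalization and ranged from -0.10 to 0.070. *Slc39a1* turned with median-of-ratios scaling (-0.13) and with the length trend removed (-0.13). The count of the 7 called higher was 0 with median-of-ratios scaling, 2 with TPM and 0 to 2 with a library left out, and that of zinc transporters called higher was 3 with median-of-ratios scaling. The difference in summed *Mt1* and *Mt2* was -11.1 FPKM with median-of-ratios and -2.62 FPKM with upper-quartile scaling, and -4.04 to 13.9 FPKM with a library left out.

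The replicate numbers are shared between groups, and the deviations of same-numbered libraries correlated at 0.12, 0.04 and 0.26, the last the highest of any WT and KO library. Replicate 3 of each group correlated negatively with replicates 1 and 2 of the other (-0.23 to -0.13). WT replicate 1 correlated best with KO replicate 2 (0.16). The numbers were not taken as pairs, and what the replicates numbered 3 share was not tested. A replicate block moved the calls over all genes from 3619 higher and 1408 lower to 4253 and 1681, and gave *Mt2* -0.63 with a limma adjusted p of 0.0632. Depth limits the low genes, and FPKM hold no counting error.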
